A study of Mus musculus with 16 samples.

Results

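Genes of glycolysis and of the response to low oxygen were followed across tumors and normal tissues of mice. There were 34 such genes: 20 encode glycolytic enzymes, enzymes that regulate glycolysis, and glucose or lactate transporters, and 14 are other targets of the hypoxia response. A gene was measured where the array had a probe set annotated with its symbol alone, and where there were several, that of highest mean level represented the gene. This gave 32 of the 34 genes, 18 of the first kind and all 14 of the second, out of 19938 genes in all. Gapdh shared every probe set with other symbols and Gpi1 was not analysed here.

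The samples were 16 arrays of total RNA, 1 per sample. Secondary kidney tumors (3 arrays) were kidney tumors transplanted under the skin of immunodeficient mice. Kidney tumors (3 arrays) came from reprogrammable mice, in which doxycycline switches on reprogramming factors; the labels do not name the factors, their promoter or any further allele. These mice received doxycycline at 4 weeks of age for 7 days, and the tumors were collected 7 days after withdrawal. Normal kidney (3 arrays) was the reference for them, and no age is recorded for it. Liver tumors (3 arrays) were primary tumors of reprogrammable mice and were set against normal liver (3 arrays), with no ages or times in the labels. Embryonic stem (ES) cells (1 array) had a 129xC57BL6 background. The mice were made with the ES cell line, so their tissues had a 129xC57BL6 F1 or mixed 129 and C57BL6 background, and tumors of chimeric mice may also hold ICR host cells. The labels do not say whether the normal tissue had received doxycycline, nor whether the 3 arrays of a group are different animals. The p-values therefore reflect only how far these arrays spread, and that spread may be technical.

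In glycolysis, glucose enters the cell through GLUT transporters, is phosphorylated by hexokinase and split into pyruvate. Lactate dehydrogenase reduces pyruvate to lactate, which leaves through monocarboxylate transporters, while pyruvate dehydrogenase sends pyruvate into the mitochondria. When oxygen is low, prolyl hydroxylases no longer mark the HIF-alpha proteins for destruction, and HIF dimers bind a short core sequence near many glycolytic and stress genes and raise their transcription. In kidney, proximal tubule cells can make glucose, as hepatocytes do, and both use isoenzymes and carriers that differ from those of dividing cells.

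Levels below are log2 of the deposited intensity, changes are log2 differences between group means with the standard error (SE) of a limma fit over all 16 arrays, and a gene was called where the Benjamini-Hochberg adjusted p over 19938 genes was under 0.05. A probe set's level was compared only with its own level elsewhere. There was no detection p, so whether a dim gene was above background is unknown, and its fold change is understated. Array medians lay between 191 and 225.7 intensity units. Xist, the RNA of the inactive X chromosome, stood between 10.19 and 11.35 log2 in arrays 2 and 3 of kidney tumor and of liver tumor. It was between 5.60 and 6.31 in the other tissue arrays. Both primary tumor groups thus mixed arrays of high and low Xist, while normal tissues and secondary tumors had only low ones. The labels give no sex for the normal tissues. Every comparison with a primary tumor therefore also differs in Xist, and the part of this in the changes was not tested. Markers of fat cells (mean of 7 genes) reached 9.38 in secondary kidney tumor array 1, 9.68 in normal kidney array 2 and 10.43 in normal liver array 1, against 6.32 to 7.17 in the other tissue arrays. Skeletal muscle markers (mean of 8) were at 10.58 in secondary kidney tumor array 1 and at 7.01 to 7.33 in all others from tissue.

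For 5 members the kept probe set may not report the gene's own locus. Probe sets are numbered along the chromosomes: for 18875 of 18922 genes with 1 probe set (99.8%), most of the 5 neighbours in number on each side were genes of the same chromosome. The kept probe sets of Hk1, Bnip3, Higd1a, Pgam1 and Pgk1 stood among genes of another chromosome. Each of these genes had another probe set among genes of its own chromosome, and its values are given where they differ. For Pgk1 both probe sets gave the same calls. For Pgam1 the other set was called 0.25 below normal kidney in secondary tumors (adjusted p 0.0381), where the kept one was not (-0.20, adjusted p 0.0648) except without normal kidney array 2 (-0.25, adjusted p 0.0479).

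The core that HIF binds is ACGTG or GCGTG. On either strand, at least 1 core was found in the 250 bases before the start of 24 of the 32 members with a RefSeq promoter entry (75%), against 7663 of 17492 protein-coding genes (43.8%). The share was 11 of 13 for the other hypoxia targets (84.6%) and 13 of 19 for glycolytic enzymes and transporters (68.4%). At least 2 matches were present in 53.1% of the members and 20.1% of protein-coding genes. A CACGTG holds ACGTG on both strands and counts as 2 matches; it was present in 12.5% of members and 6.65% of protein-coding genes. Slc2a3 and Ndrg1 had no entry, while Gapdh and Gpi1, which were not measured on the arrays here, had an entry and are counted. For 19 of the 32 the window lay before the gene's annotated start, and otherwise, Slc16a3 and Kdm3a included, before the first transcript start listed. These matches describe letters in a window and do not show binding. The members were listed as glycolytic genes and hypoxia targets, so a higher share of cores could follow from that choice alone. Both cores hold CG, and the windows were not matched to those of other genes in base content. The shares therefore only describe this list. Pkm, Aldoa, Vegfa, Tpi1, Eno2, Hk1, Mxi1 and Gpi1 had no match in this window.

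The windows of 6 genes, from RefSeq on GRCm38.p6, are printed 5′ to 3′ in the direction of the gene with each core in capitals on whichever strand it lies. The first 4 belong to genes that rose in both primary tumors and in secondary tumors: Slc16a3 (chr11:120948817-120949066, plus strand), Hk2 (chr6:82774455-82774704, minus strand), Kdm3a (chr6:71632918-71633167, minus strand) and Ddit4 (chr10:59951771-59952020, minus strand). The last 2 belong to hypoxia targets that fell in secondary kidney tumors: Car9 (chr4:43506776-43507025, plus strand) and Bnip3 (chr7:138909507-138909756, minus strand).
Slc16a3: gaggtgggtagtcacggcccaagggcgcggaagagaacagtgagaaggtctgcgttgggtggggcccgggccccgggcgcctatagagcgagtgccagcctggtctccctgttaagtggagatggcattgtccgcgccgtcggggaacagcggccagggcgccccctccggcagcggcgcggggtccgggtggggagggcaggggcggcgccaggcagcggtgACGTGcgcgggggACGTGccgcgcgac
Hk2: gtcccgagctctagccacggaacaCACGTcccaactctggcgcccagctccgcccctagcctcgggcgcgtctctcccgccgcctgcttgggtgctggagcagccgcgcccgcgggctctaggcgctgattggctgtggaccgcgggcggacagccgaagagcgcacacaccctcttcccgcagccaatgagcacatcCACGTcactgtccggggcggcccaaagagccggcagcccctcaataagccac
Kdm3a: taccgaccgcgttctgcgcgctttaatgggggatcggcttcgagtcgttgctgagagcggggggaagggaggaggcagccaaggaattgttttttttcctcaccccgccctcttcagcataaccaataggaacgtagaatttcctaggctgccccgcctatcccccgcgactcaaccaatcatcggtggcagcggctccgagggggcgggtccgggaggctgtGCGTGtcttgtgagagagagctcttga
Ddit4: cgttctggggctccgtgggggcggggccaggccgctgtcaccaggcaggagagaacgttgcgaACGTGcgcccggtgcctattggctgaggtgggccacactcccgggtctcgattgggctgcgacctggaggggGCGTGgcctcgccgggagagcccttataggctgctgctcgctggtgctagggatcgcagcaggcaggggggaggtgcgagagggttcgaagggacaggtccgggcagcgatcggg
Car9: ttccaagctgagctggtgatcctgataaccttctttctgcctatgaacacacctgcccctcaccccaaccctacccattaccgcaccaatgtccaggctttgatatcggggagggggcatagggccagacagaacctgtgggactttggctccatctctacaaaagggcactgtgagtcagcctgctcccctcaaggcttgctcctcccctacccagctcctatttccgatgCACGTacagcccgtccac
Bnip3: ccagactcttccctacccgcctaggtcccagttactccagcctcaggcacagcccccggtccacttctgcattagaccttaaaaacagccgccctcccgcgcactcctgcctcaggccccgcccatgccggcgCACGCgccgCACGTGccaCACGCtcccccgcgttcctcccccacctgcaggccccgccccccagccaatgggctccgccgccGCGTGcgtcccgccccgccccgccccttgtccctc

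Among these, Bnip3 had the most matches (5, with 1 CACGTG counted as 2), and Kdm3a had 1. Whether match number goes with change was not tested. Slc16a3, Hk2 and Ddit4 had 2 matches each, and Car9 had 1.

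**Figure D1:**
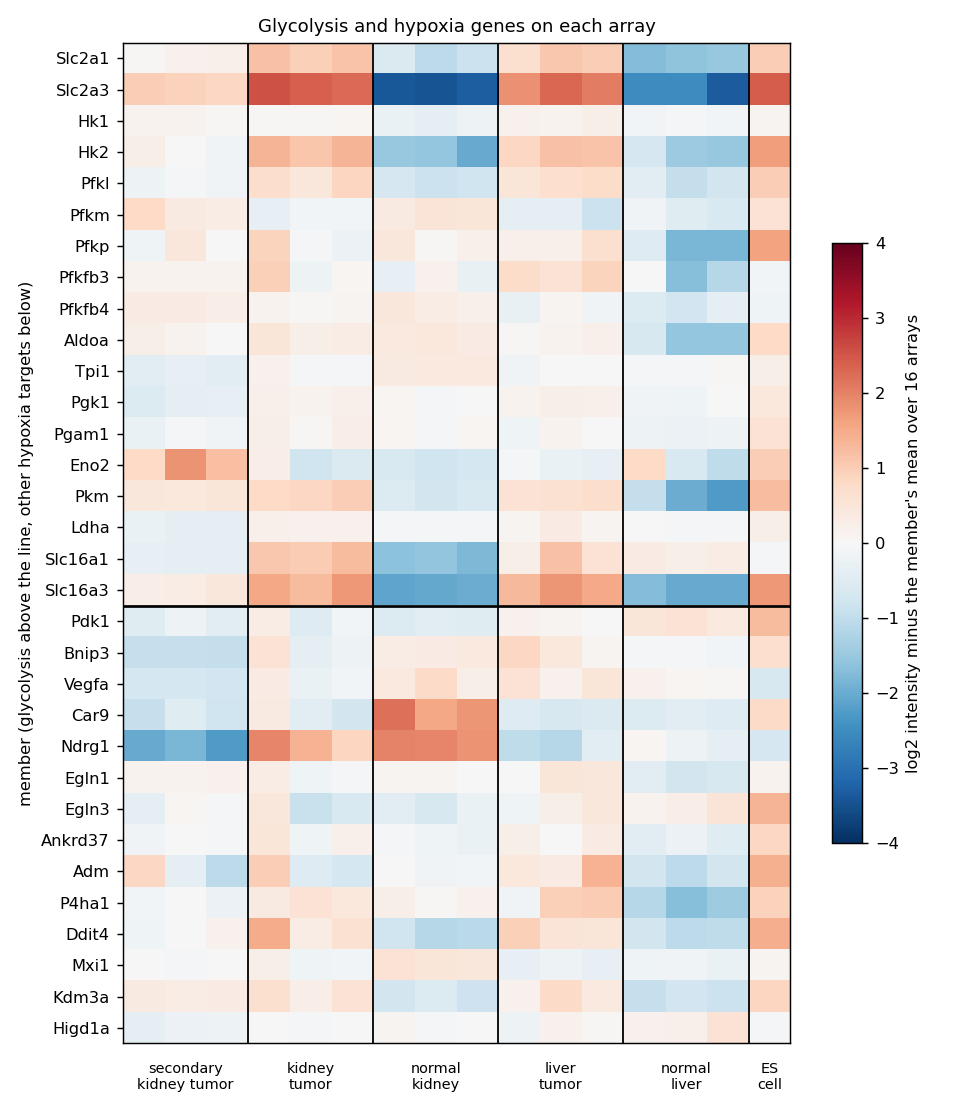
Heat map of the 32 measured members (rows, glycolytic enzymes and transporters above, other hypoxia targets below) over the 16 arrays (columns). Colour is log2 intensity minus the gene's mean over all arrays. Slc2a3, Slc16a3 and Hk2 are high in both kinds of primary tumor and in ES cells and low in both normal tissues. In secondary kidney tumors Slc2a3 and Slc16a3 lie above their mean and Hk2 lies near its mean. Ndrg1 and Car9 are highest in normal kidney.

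The first comparison set kidney tumors, 7 days after the end of reprogramming, against normal kidney. The genes that bring glucose in and let lactate out rose most, together with hexokinase 2, the muscle-type pyruvate kinase gene Pkm and liver-type phosphofructokinase. The middle of the pathway moved little or fell. Hypoxia targets outside glycolysis did not move as a group: Ddit4 and Kdm3a rose, while Car9, Vegfa and Mxi1 fell. In numbers, 9 of 18 glycolytic enzymes and transporters rose, 2 fell and 7 did not pass. Of the 14 other hypoxia targets, 2 rose, 3 fell and 9 did not pass. In this comparison 21.7% of all genes were called higher and 28.1% lower, so the 11 of 32 members called higher stood above that background and the 5 called lower were fewer than their share of it. Called in either direction were 16 members (49.8% of all genes), and the arrays of tumor and normal kidney did not overlap in 18 members (64.6% of all genes). The members' median change was 0.21, against -0.11 over all genes. The members were chosen with earlier results of these data known. Their counts beside the background, here and in the comparisons below, only describe this list.

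Slc2a3 encodes GLUT3, a glucose transporter of high affinity known from neurons and embryonic cells. It stood at 13.12, 12.96 and 12.83 log2 intensity in the 3 kidney tumors, against 7.19, 7.11 and 7.27 in normal kidney. The groups lay far apart, and the change of 5.78 ± 0.19 (SE) is 54.9-fold (adjusted p 3.27e-09). Slc2a1, encoding GLUT1, the general glucose transporter, was at 13.26, 13.06 and 13.24 in kidney tumors and at 11.52, 11.04 and 11.23 in normal kidney. Here too no tumor overlapped with normal kidney (1.92 ± 0.13, adjusted p 3.21e-07).

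Hk2 encodes the hexokinase of muscle and of many tumors. Its level was 10.34, 10.07 and 10.33 in kidney tumors and 7.47, 7.43 and 6.96 in normal kidney, a rise of 2.96 ± 0.22 (7.79-fold, adjusted p 4.66e-07) with no overlap. Hk1, the hexokinase of most tissues, read 12.81, 12.82 and 12.86 in kidney tumors and 12.51, 12.39 and 12.57 in normal kidney on the kept probe set (0.34 ± 0.06, adjusted p 0.000608). On the probe set numbered with its own chromosome it read 10.01, 9.42 and 9.19 in kidney tumors, against 10.41, 9.96 and 10.13 in normal kidney, a difference of -0.63 ± 0.27 that did not pass (adjusted p 0.0722). The direction for Hk1 is therefore not settled by these data.

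Phosphofructokinase commits sugar to glycolysis, and its 3 genes differed. Pfkl, the liver type, rose by 1.44 ± 0.13 (adjusted p 2.06e-06). Pfkm, the muscle type, fell by 0.64 with an SE of 0.16 (adjusted p 0.00601). Pfkp, the platelet type, averaged 9.02 ± 0.60 in kidney tumors and 9.07 ± 0.20 in normal kidney (SD, n = 3 each), and did not pass. The genes of the enzymes that make and remove its sugar bisphosphate activator, Pfkfb3 (0.42 ± 0.36) and Pfkfb4 (-0.22 ± 0.11), did not pass either.

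From aldolase to enolase no member rose. Aldoa (-0.04 ± 0.19), Pgk1 (0.17 ± 0.08), Pgam1 (0.16 ± 0.09) and Eno2 (0.33 ± 0.40) did not pass, and Tpi1, triosephosphate isomerase, fell by 0.37 with an SE of 0.08 (adjusted p 0.00176). Pkm makes the pyruvate kinase of non-hepatic and dividing cells. It reached 12.39, 12.44 and 12.58 in kidney tumors, against 11.04, 10.87 and 10.99 in normal kidney, again without overlap (1.50 ± 0.23, adjusted p 0.000141). Ldha, the lactate dehydrogenase subunit favouring lactate, was at 13.38, 13.35 and 13.36 in kidney tumors and 13.13, 13.08 and 13.10 in normal kidney. That separation was narrow (0.26 ± 0.07, adjusted p 0.00923), and with each array centred on its median the change was 0.15 and did not pass (adjusted p 0.0825).

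Both lactate carriers rose. Slc16a3, encoding MCT4, the exporter of highly glycolytic cells, was at 11.33, 11.03 and 11.52 in kidney tumors and at 7.67, 7.74 and 7.79 in normal kidney (3.56 ± 0.14, 11.8-fold, adjusted p 4.38e-09). Slc16a1, encoding MCT1, which moves lactate either way, was at 12.27, 12.21 and 12.47 in kidney tumors and at 9.55, 9.62 and 9.41 in normal kidney (2.79 ± 0.17, 6.92-fold, adjusted p 1.46e-07). Neither gene had a tumor array within the range of normal kidney.

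Of the hypoxia targets, Ddit4, an inhibitor of mTORC1 also known as REDD1, rose by 1.82 ± 0.24 (adjusted p 4.5e-05). Kdm3a, a histone demethylase, rose by 1.21 ± 0.14 (adjusted p 1.37e-05). Car9, encoding the membrane carbonic anhydrase widely used as a hypoxia marker, stood at 7.60, 6.79 and 6.50 in kidney tumors, against 8.80 to 9.45 in normal kidney. It was lower in every tumor (-2.12 ± 0.23, 4.35-fold lower, adjusted p 9.7e-06). Mxi1, a MAX partner that opposes MYC, fell by 0.52 with an SE of 0.10 (adjusted p 0.000816).

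Vegfa, the main growth factor for blood vessels, was at 11.06, 10.45 and 10.61 in kidney tumors and at 11.10, 11.47 and 10.94 in normal kidney. The groups overlapped, and although Vegfa was called (-0.46 ± 0.16, adjusted p 0.0298), the call was lost without kidney tumor array 2 (adjusted p 0.133), kidney tumor array 3 (0.0941) or normal kidney array 2 (0.132). Pdk1, the kinase that shuts off pyruvate dehydrogenase, was at 9.93, 9.11 and 9.52 in kidney tumors and at 9.07, 9.20 and 9.16 in normal kidney (0.37 ± 0.16, adjusted p 0.0684). It passed without kidney tumor array 2 (0.58, adjusted p 0.00331). Ndrg1, a stress-induced differentiation gene, was at 13.37, 12.81 and 12.27 in kidney tumors and at 13.40, 13.37 and 13.21 in normal kidney (-0.51 ± 0.24, adjusted p 0.0991). It passed without kidney tumor array 1 (-0.79, adjusted p 0.00955), and Bnip3 likewise (-0.62, adjusted p 0.00487, against -0.33 ± 0.21 with all arrays). Ankrd37 did not pass (0.34 ± 0.14, adjusted p 0.0628), but did without kidney tumor array 2 (0.52, adjusted p 0.00406), and was then also called lower in secondary than in primary tumors (-0.44, adjusted p 0.0165).

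The 3 kidney tumors were not alike in the hypoxia targets. Kidney tumor array 1 was the highest of the 3 in 12 of these 14 genes (85.7%), against 38.5% of all genes, and in 10 of 18 glycolysis genes. Normal kidney array 1 was likewise the highest of its group in 9 of the 14 (64.3%, against 35.2% of all genes). Adm, the peptide adrenomedullin, read 9.25 in kidney tumor array 1 and 7.76 and 7.56 in the other kidney tumors, with 8.13 to 8.26 in normal kidney. Egln3, a prolyl hydroxylase that HIF itself induces, read 10.53 there, 9.19 and 9.48 in the others, and 9.43 to 9.79 in normal kidney. Kidney tumor array 1 was also the kidney tumor without Xist signal. Its distal nephron marker mean was 10.91, against 10.39 and 9.91 in the other tumors and 11.95 to 12.03 in normal kidney. Its proximal tubule marker mean was 11.89, between the 12.04 and 11.11 of the other tumors. The part of any of these in the levels was not tested. The mean of the 14 hypoxia targets was 10.08 in kidney tumor array 1 and 9.40 and 9.48 in the other kidney tumors. In normal kidney this mean was 9.60 to 9.71.

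Of 18 measured genes for isoenzymes and carriers of other tissues, 3 rose, 9 fell and 6 did not pass, where 28.1% of all genes fell. The fructokinase gene Khk fell by 2.21 with an SE of 0.25 and the fructose carrier gene Slc2a5 by 2.15 with an SE of 0.20, and Slc16a7, encoding the carrier MCT2, by 2.03 with an SE of 0.26. Slc2a2, encoding GLUT2, the low-affinity carrier of tubule and liver cells, was at 10.19, 9.97 and 9.16 in kidney tumors, against 11.47, 11.76 and 11.54 in normal kidney (-1.82 ± 0.24, adjusted p 3.47e-05). Pklr, the liver and red cell pyruvate kinase, spread over 11.76, 10.14 and 9.33 in kidney tumors, around 10.30, 10.46 and 10.34 in normal kidney (0.04 ± 0.43). Ldhb, the subunit favouring pyruvate, was at 11.67, 11.49 and 10.82 in kidney tumors and 12.29, 12.48 and 12.32 in normal kidney, without overlap but short of the threshold (-1.04 ± 0.43, adjusted p 0.0635).

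Of 9 measured genes that decide where pyruvate goes, 7 fell, 1 rose and 1 did not pass. For this and the counts below, 21.7% of all genes rose and 28.1% fell. The pyruvate list mixes genes of pyruvate dehydrogenase with genes of kinases that shut it off, so its count gives no direction of pyruvate use. Pyruvate carboxylase, Pcx, which feeds glucose synthesis, fell by 2.00 (SE 0.35), the kinase gene Pdk2 by 1.92 (SE 0.38) and the mitochondrial pyruvate carrier gene Mpc1 by 1.73 (SE 0.22). Of 11 genes of the HIF pathway itself, 4 rose and 2 fell, with Hif3a, another alpha subunit, at 0.92 ± 0.16 and the coactivator gene Crebbp at 0.49 ± 0.09. Hif1a, the oxygen-regulated alpha subunit of most cells, rose by 0.37 ± 0.12 (adjusted p 0.0203), while Epas1, encoding the alpha subunit also made in endothelial and interstitial cells, fell by 1.43 with an SE of 0.27 (adjusted p 0.000713). Of 30 further hypoxia targets, 9 rose, 8 fell and 13 did not pass, with Lox, which cross-links collagen, at 2.36 ± 0.44, Cxcr4, a chemokine receptor, at 2.14 ± 0.23 and the carbonic anhydrase gene Car12 at -2.16 ± 0.38.

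Cell markers moved with these genes. The proximal tubule marker mean (8 genes) was 11.11 to 12.04 in kidney tumors, against 13.06 to 13.16 in normal kidney, with 4 of 8 called lower. The myeloid mean (10 genes) was 9.03 to 9.22 in kidney tumors and 7.72 to 7.99 in normal kidney, with 7 called higher, and the proliferation mean (7 genes) was 10.77 to 11.49 in kidney tumors and 7.00 to 7.30 in normal kidney, with all 7 called higher. Pluripotency markers (mean of 8) were at 9.29 to 9.69 in kidney tumors and 6.57 to 6.74 in normal kidney, with 6 called higher. Neuronal markers (mean of 8) were at 8.34 to 9.30 in kidney tumors and 6.63 to 6.75 in normal kidney, also with 6 called higher. The part of these cell types in the changes was not tested, and in bulk tissue fewer cells of a type and less RNA per cell cannot be told apart. With each array centred on its median the 4322 genes called higher and 5600 called lower became 3707 and 8534, and members called became 10 higher and 7 lower.

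**Figure D2:**
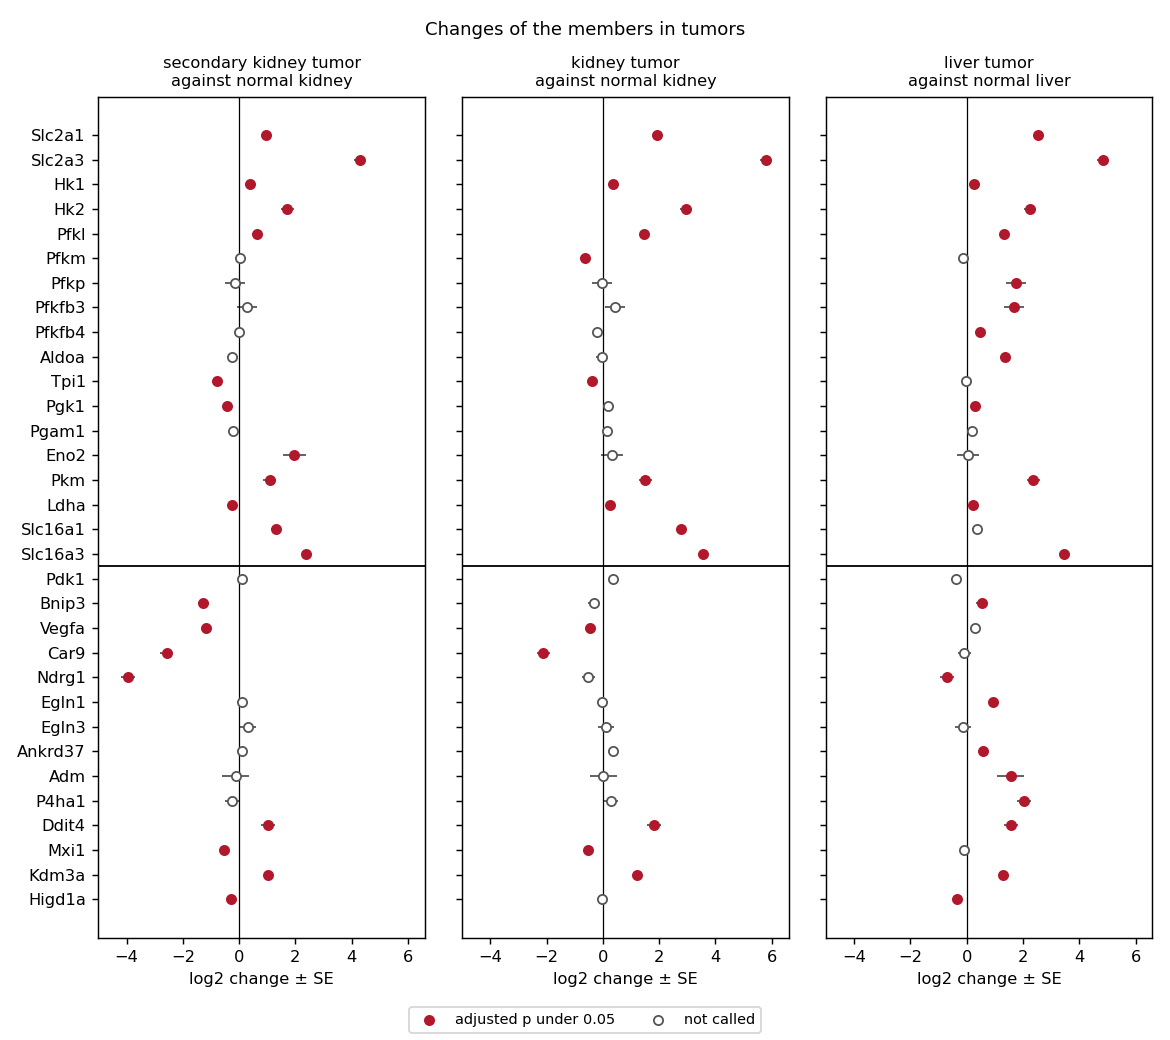
Log2 change ± SE of each measured member (rows) in secondary kidney tumor and kidney tumor against normal kidney and in liver tumor against normal liver (panels); filled points were called at an adjusted p under 0.05. Slc2a3, Slc16a3 and Hk2 lie far to the right in every panel, and Ndrg1 (-3.95) and Car9 (-2.58) far to the left in secondary kidney tumors.

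Secondary kidney tumors, grown under the skin, were compared with normal kidney and with the primary kidney tumors. The carriers, Hk2, Pkm, Pfkl, Ddit4 and Kdm3a were higher in them than in normal kidney, and all of these but Pkm and Kdm3a, which did not pass, were lower than in primary tumors. The hypoxia targets Ndrg1, Bnip3 and Vegfa were lower in them than in either kidney group. Eno2, the neuron-specific enolase, stood out as the glycolytic gene that was higher than in both. Against normal kidney, 9 of 18 glycolysis genes rose, 3 fell and 6 did not pass, and of 14 hypoxia targets 2 rose, 6 fell and 6 did not pass. The background was 29.9% of all genes higher and 38.7% lower, so the 11 members called higher (of 32) and the 9 called lower stood near or under it. Called in either direction were 20 members (68.6% of all genes), and 24 did not overlap (79.6%). Against primary tumors, 2 glycolysis genes were higher and 10 lower, and 4 hypoxia targets were lower and none higher. There the background was 18.5% higher and 17.4% lower, and the 14 of 32 members called lower stood above it, with 16 called in either direction (36% of all genes) and 20 that did not overlap (56.2%). The 2 comparisons share the secondary tumor arrays, and the primary tumors were set against the same normal kidneys. Members had a median change of 0.06 against normal kidney (all genes -0.12) and of -0.38 against primary tumors (all genes -0.07).

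Slc2a3 was at 11.54, 11.48 and 11.41 in secondary tumors, 13.12, 12.96 and 12.83 in primary kidney tumors and 7.19, 7.11 and 7.27 in normal kidney. The 3 groups were fully separate. The change was 4.29 ± 0.19 against normal kidney (adjusted p 2.01e-09) and -1.49 ± 0.19 against primary tumors (adjusted p 5.1e-05). Slc2a1 was at 12.15, 12.26 and 12.29 in secondary tumors, 0.97 ± 0.13 above normal kidney and 0.95 below primary tumors (-0.95 ± 0.13, adjusted p 9.97e-05).

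Hk2 stood at 9.22, 8.97 and 8.83 in secondary tumors, between primary tumors and normal kidney (1.72 ± 0.22 against normal kidney, -1.24 ± 0.22 against primary tumors). Hk1 on its kept probe set was at 12.90, 12.90 and 12.83 (0.38 ± 0.06 against normal kidney, adjusted p 0.000163). On the other probe set it was at 9.67, 9.88 and 9.89 in secondary tumors and below normal kidney (-0.36 ± 0.27, adjusted p 0.257). Pkm was at 12.05, 12.03 and 12.08 in secondary tumors, above normal kidney by 1.09 ± 0.23 (adjusted p 0.00115). It lay below every primary tumor array without passing (-0.42 ± 0.23, adjusted p 0.183). Pfkl followed the same order, 0.65 ± 0.13 above normal kidney and 0.79 below primary tumors (-0.79 ± 0.13).

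Lactate handling was likewise between the other groups. Slc16a3 read 10.06, 10.07 and 10.23 in secondary tumors (2.38 ± 0.14 against normal kidney, -1.17 ± 0.14 against primary tumors). Slc16a1 read 10.86, 10.83 and 10.81 (1.31 ± 0.17 against normal kidney, -1.48 ± 0.17 against primary tumors). Ldha behaved otherwise: it was at 12.91, 12.79 and 12.80 in secondary tumors, below all arrays of primary tumors (-0.53 ± 0.07, adjusted p 9.04e-05) and of normal kidney (-0.27 ± 0.07, adjusted p 0.00593). Tpi1 (-0.78 ± 0.08) and Pgk1, phosphoglycerate kinase (-0.42 ± 0.08), were also below normal kidney.

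Eno2 was at 8.50, 9.49 and 8.92 in secondary tumors, against 7.96, 6.91 and 7.12 in primary tumors and 7.10, 6.91 and 7.01 in normal kidney. No other kidney array reached a secondary tumor (1.97 ± 0.40 against normal kidney, adjusted p 0.000808, and 1.64 ± 0.40 against primary tumors, adjusted p 0.00605). The brain aldolase gene Aldoc rose with it, to 10.87, 11.72 and 11.58 in secondary tumors against 9.63, 9.03 and 9.39 in normal kidney (2.04 ± 0.22, adjusted p 3.03e-06). The neuronal marker mean (8 genes) was 11.10 to 11.59 in secondary tumors, 8.34 to 9.30 in primary tumors and 6.63 to 6.75 in normal kidney, with all 8 markers called higher than in normal kidney. Glial markers (mean of 6) stood at 10.52 to 10.83 in secondary tumors and 7.66 to 7.71 in normal kidney. The part of neural cells in the Eno2 level was not tested. Pfkm was higher than in primary tumors (0.67 ± 0.16), with its highest level, 10.45, in the secondary tumor array with muscle markers and 9.95 in the lowest.

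Ndrg1 read 9.41, 9.58 and 9.16 in secondary tumors, against 13.37, 12.81 and 12.27 in primary tumors and 13.40, 13.37 and 13.21 in normal kidney. Of the 32 members this was the widest gap between secondary and primary tumors (-3.43 ± 0.24, 10.8-fold lower, adjusted p 2.34e-07), and against normal kidney it was -3.95 ± 0.24 (15.4-fold lower). Bnip3, a mitochondrial protein that promotes mitophagy, was at 10.35, 10.33 and 10.31 in secondary tumors, against 11.83, 10.88 and 11.07 in primary tumors and 11.56, 11.58 and 11.65 in normal kidney. It was below both (-0.93 ± 0.21 and -1.27 ± 0.21). Vegfa was at 10.02, 10.01 and 9.95 in secondary tumors, likewise below all primary tumors (-0.71 ± 0.16, adjusted p 0.00386) and all normal kidneys (-1.18 ± 0.16, adjusted p 3.09e-05). Car9 was at 6.31, 6.75 and 6.45 in secondary tumors, far below normal kidney (-2.58 ± 0.23, adjusted p 6.82e-07) and overlapping with primary tumors (-0.46 ± 0.23, adjusted p 0.146). It was called lower than in primary tumors without kidney tumor array 3 (-0.69, adjusted p 0.0335).

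Ddit4 (1.01 ± 0.24) and Kdm3a (1.03 ± 0.14) stayed above normal kidney. Ddit4 was below primary tumors (-0.80 ± 0.24, adjusted p 0.0204), a call that was lost without kidney tumor array 1 (-0.46, adjusted p 0.0584) or without secondary tumor array 1 or 2 (adjusted p 0.0685 and 0.0536). Pdk1 read 9.15, 9.44 and 9.19 in secondary tumors, within the range of primary tumors and close to normal kidney (0.11 ± 0.16 against normal kidney). Without kidney tumor array 2 it was called lower than in primary tumors (-0.46, adjusted p 0.0174). Egln3 was called higher than in primary tumors without kidney tumor array 1 (0.60, adjusted p 0.0329), but not with all arrays (0.20, adjusted p 0.594). Higd1a, a mitochondrial hypoxia gene, was 0.29 below normal kidney on the kept probe set (adjusted p 0.0432), which none of the 6 fits that left out a kidney or secondary tumor array kept (adjusted p 0.0538 to 0.14), and the other probe set gave -0.12 (adjusted p 0.457).

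The kidney's own sugar genes fell much further here than in primary tumors. Slc2a2 was at 5.91 to 6.16 in secondary tumors, 3.74 below primary tumors (-3.74 ± 0.24) and 5.56 below normal kidney (-5.56 ± 0.24, adjusted p 1.52e-09). Khk fell by 4.98 (SE 0.25) and Slc2a5 by 4.39 (SE 0.20) against normal kidney. Pklr was at 7.20, 7.47 and 7.08 (-3.11 ± 0.43 against normal kidney) and Ldhb at 9.83, 10.03 and 10.08 (-2.38 ± 0.43). In the list of 18 isoenzyme and carrier genes, 11 were lower and 2 higher than in normal kidney, and 10 lower and 1 higher than in primary tumors. Of all genes, 38.7% were lower and 29.9% higher than in normal kidney, and 17.4% lower and 18.5% higher than in primary tumors. Of the further hypoxia targets, 15 of 30 fell and 8 rose against normal kidney. Car12 fell by 4.77 (SE 0.38) and the mitochondrial adenylate kinase gene Ak4 by 2.91 (SE 0.15), while Lox rose by 3.61 ± 0.44. Pyruvate genes again had 7 of 9 lower and 1 higher, with Pcx at -3.08 ± 0.35, Pdk2 at -2.81 ± 0.38 and Mpc1 at -2.05 ± 0.22. Of 11 HIF pathway genes 6 rose and 3 fell: Hif1a was at 0.29 ± 0.12 (adjusted p 0.0476) and Epas1 at -1.39 ± 0.27, with Hif3a at 0.86 ± 0.16 and Arnt2 at 0.78 ± 0.17. Against primary tumors, Pklr (-3.16 ± 0.43) and Khk (-2.76 ± 0.25) fell with Slc2a2, and of the further hypoxia targets Car12 (-2.61 ± 0.38) and Ak4 (-1.65 ± 0.15) fell while Ppp1r3c rose (1.82 ± 0.24). Among pyruvate genes Pcx (-1.07 ± 0.35) and Pdha1 (-0.53 ± 0.16) were lower and the phosphatase gene Pdp1 higher (0.93 ± 0.13). In the HIF pathway Arnt2 (0.58 ± 0.17) and Vhl (0.46) were higher and Cited2 lower (-0.35 ± 0.12).

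The proximal tubule marker mean was 7.01 to 7.03 in secondary tumors, against 11.11 to 12.04 in primary tumors and 13.06 to 13.16 in normal kidney. All 8 markers were called lower in both comparisons. Fibroblast markers (mean of 8) were at 11.40 to 11.82 in secondary tumors, 9.15 to 10.20 in primary tumors and 8.57 to 9.05 in normal kidney, with all 8 called higher than in normal kidney. Keratinocyte markers (mean of 7) were at 9.25 to 9.95 in secondary tumors, 6.66 to 6.74 in primary tumors and 6.64 to 7.00 in normal kidney, with all 7 called higher than in either. Pluripotency markers were at 8.66 to 9.36 in secondary tumors, 9.29 to 9.69 in primary tumors and 6.57 to 6.74 in normal kidney, with 7 of 8 called higher than in normal kidney. The part of any of these in the members' changes was not tested. Without the arrays high in fat or muscle markers (secondary tumor 1 and normal kidney 2 among these groups), 11 members were called higher and 9 lower against normal kidney, and 2 higher and 13 lower against primary tumors. In that fit 5291 of all 19938 genes were higher and 6272 lower against normal kidney, and 3312 higher and 2536 lower against primary tumors. Centring turned 5962 higher and 7720 lower genes into 4711 and 10686 against normal kidney, and 3693 and 3475 into 3210 and 5500 against primary tumors. The members called then numbered 11 higher and 11 lower, and 2 higher and 16 lower.

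**Figure D3:**
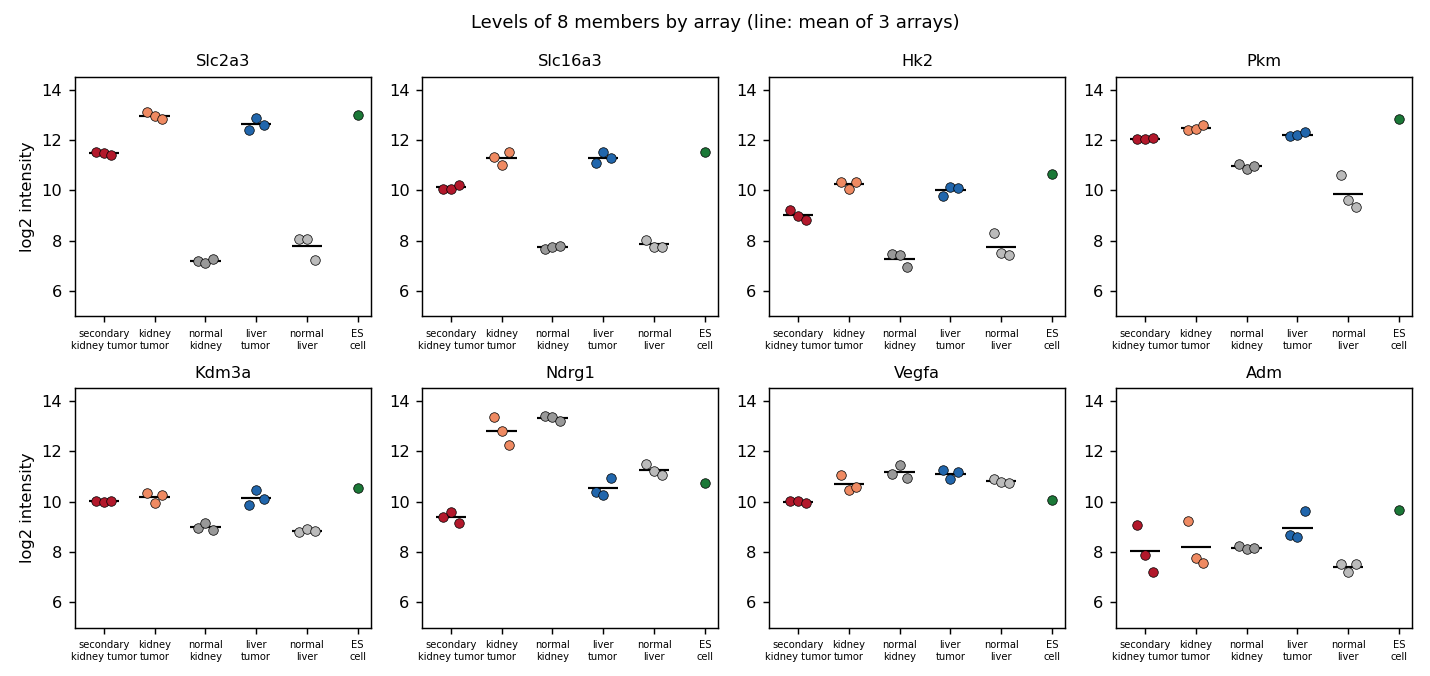
Log2 intensity of single members by array (points) in the 6 groups, with the mean of 3 arrays as a line. Slc2a3 is separate in all 3 kidney groups, Ndrg1 lies at 9.16 to 9.58 in secondary kidney tumors and at 12.27 or above in primary tumors and normal kidney, and ES cells have 1 point.

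Liver tumors, from the other organ of the study, were compared with normal liver. Most of the glycolytic list rose there, and so did many hypoxia targets. The carriers and Hk2 again led, joined by Pkm, Pfkp, Pfkfb3 and Aldoa. Of 18 glycolysis genes 13 rose, none fell and 5 did not pass, and of 14 hypoxia targets 7 rose, 2 fell and 5 did not pass. With 21.5% of all genes called higher and 30.7% lower, the 20 of 32 members called higher stood well above the background and the 2 called lower well under it. Called in either direction were 22 members (52.3% of all genes), and 24 did not overlap (59.2%). The median change of the members was 0.50, against -0.13 over all genes. Here too the list was chosen with earlier results known.

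Slc2a3 was at 12.39, 12.87 and 12.60 in liver tumors and at 8.07, 8.06 and 7.23 in normal liver (4.83 ± 0.19, 28.5-fold, adjusted p 7.18e-09). Slc2a1 was at 12.75, 13.18 and 13.08 in liver tumors and at 10.36, 10.48 and 10.60 in normal liver (2.53 ± 0.13, 5.77-fold, adjusted p 4.43e-08). Both carriers were thus separate from normal liver by more than 2 log2 units in every array. Slc16a3 was at 11.07, 11.54 and 11.30 in liver tumors, against 8.03, 7.77 and 7.76 in normal liver (3.45 ± 0.14, adjusted p 7.18e-09). Slc16a1 read 11.42, 12.36 and 11.76 in liver tumors and 11.52, 11.42 and 11.50 in normal liver, which overlapped and did not pass (0.37 ± 0.17, adjusted p 0.0913). It passed without liver tumor array 1 (0.58, adjusted p 0.00559).

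Hk2 was at 9.79, 10.13 and 10.11 in liver tumors and at 8.32, 7.51 and 7.45 in normal liver (2.25 ± 0.22, adjusted p 4.87e-06). Hk1 on the kept probe set was at 12.94, 12.91 and 13.00 in liver tumors and 12.67, 12.69 and 12.66 in normal liver (0.27 ± 0.06, adjusted p 0.00341). Its other probe set gave a larger rise in the same direction (0.83 ± 0.27, adjusted p 0.0219), with liver tumors at 8.16, 9.07 and 8.94 and normal liver at 8.40, 7.66 and 7.61. Pkm was at 12.16, 12.20 and 12.30 in liver tumors and at 10.63, 9.61 and 9.35 in normal liver (2.36 ± 0.23, 5.12-fold, adjusted p 6.02e-06). Normal liver array 1, the one with fat cell markers, was the highest normal liver array in 13 of 18 glycolysis genes (72.2%, against 30% of all genes), Hk2 and Pkm among them.

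Of the steps between, some rose. Pfkl rose by 1.33 ± 0.13, Pfkp by 1.74 ± 0.35, Pfkfb3 by 1.68 ± 0.36, Pfkfb4 by 0.47 ± 0.11 and Aldoa by 1.37 ± 0.19 (adjusted p 8.32e-05). Pgk1 rose by 0.29 ± 0.08, while Tpi1 (-0.03 ± 0.08), Pgam1 (0.19 ± 0.09), Pfkm (-0.12 ± 0.16) and Eno2 (0.04 ± 0.40) did not pass. Ldha was at 13.26, 13.51 and 13.29 in liver tumors and at 13.15, 13.10 and 13.10 in normal liver, a small separation (0.24 ± 0.07, adjusted p 0.017). The Ldha call was lost without liver tumor array 2 (adjusted p 0.059) and under centring (adjusted p 0.123), and the Pgk1 call under centring (adjusted p 0.0649).

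P4ha1, a subunit of the collagen prolyl hydroxylase, had the largest change of the 14 hypoxia targets in the set. It was at 9.89, 10.98 and 11.03 in liver tumors and at 8.87, 8.32 and 8.60 in normal liver, with no overlap (2.04 ± 0.24, 4.11-fold, adjusted p 2.46e-05). Ddit4 rose by 1.58 ± 0.24, Kdm3a by 1.30 ± 0.14, the oxygen-sensing prolyl hydroxylase gene Egln1 by 0.92 ± 0.15 and Ankrd37 by 0.58 ± 0.14. Adm rose by 1.56 ± 0.47 (adjusted p 0.0153), with the call lost without liver tumor array 3 (1.23, adjusted p 0.0638). Bnip3 was called at 0.54 ± 0.21 (adjusted p 0.0448), which 5 of the 6 fits without 1 liver array lost (adjusted p 0.0782 to 0.165), as did the probe set of its own chromosome (0.46, adjusted p 0.0914).

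Vegfa was at 11.28, 10.89 and 11.19 in liver tumors and at 10.90, 10.79 and 10.75 in normal liver, overlapping (0.30 ± 0.16, adjusted p 0.13). Pdk1 was at 9.79, 9.73 and 9.62 in liver tumors and at 10.12, 10.21 and 10.01 in normal liver, lower in every tumor but just short of the threshold (-0.40 ± 0.16, adjusted p 0.0514). Car9 was at 6.72, 6.60 and 6.64 in liver tumors and 6.68, 6.82 and 6.72 in normal liver, near the low end in both (-0.09 ± 0.23). Ndrg1 was at 10.40, 10.26 and 10.95 in liver tumors and at 11.49, 11.22 and 11.05 in normal liver (-0.71 ± 0.24, adjusted p 0.0272). The Ndrg1 call was lost without any of 4 liver arrays (adjusted p 0.0575 to 0.106). Higd1a fell by 0.33 (adjusted p 0.031), but not without liver tumor array 1 (adjusted p 0.115) or normal liver array 3 (0.138), and its other probe set gave -0.06.

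Among isoenzymes of other tissues 1 of 18 rose, 7 fell and 10 did not pass, where 21.5% of all genes rose and 30.7% fell. Khk (-1.53 ± 0.25), the fructose and urate carrier gene Slc2a9 (-1.49 ± 0.22) and Pklr (-1.34 ± 0.43) fell most. Pklr was at 11.20, 10.62 and 10.74 in liver tumors and at 12.32, 12.39 and 11.85 in normal liver. Slc2a2 was at 11.82, 11.28 and 11.04 in liver tumors and at 11.75, 11.93 and 11.77 in normal liver, and did not pass (-0.43 ± 0.24, adjusted p 0.136). Ldhb, at 9.24, 9.37 and 8.87 in liver tumors and 9.52, 7.71 and 7.22 in normal liver, did not pass either (1.01 ± 0.43, adjusted p 0.0668).

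Of the further hypoxia targets, 14 of 30 rose, 6 fell and 10 did not pass, beside the same 21.5% and 30.7% of all genes. Plod2, which hydroxylates collagen lysines, was at 9.37, 10.82 and 10.31 in liver tumors against 8.04, 6.27 and 6.39 in normal liver (3.27 ± 0.42). Pdk3, a pyruvate dehydrogenase kinase, was at 9.28, 10.14 and 9.71 in liver tumors against 7.46, 6.89 and 6.96 in normal liver (2.60 ± 0.18). Ppp1r3c, which targets a phosphatase to glycogen, fell to 7.69, 8.57 and 7.35 in liver tumors, against 11.04, 11.18 and 11.24 in normal liver (-3.29 ± 0.24). Of the HIF pathway, 6 of 11 rose and 1 fell, with Arnt2, a partner subunit, at 1.11 ± 0.17, Hif3a at 0.89 ± 0.16, the coactivator gene Ep300 at 0.80 ± 0.08 and Hif1a at 0.63 ± 0.12 (adjusted p 0.00086). Epas1 did not pass (-0.49 ± 0.27, adjusted p 0.147). Of the pyruvate genes, 4 of 9 fell and 1 rose, with the phosphatase gene Pdp2 at -1.72 ± 0.19, Pdk2 at -1.31 ± 0.38 and Pdhb, a subunit of pyruvate dehydrogenase, at -1.06 ± 0.14.

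The hepatocyte marker mean (7 genes) was 12.77 to 13.45 in liver tumors and 13.60 to 13.63 in normal liver, with 3 called lower. The myeloid mean was 9.15 to 9.73 in liver tumors and 8.13 to 8.36 in normal liver, with 8 of 10 called higher. The proliferation mean was 10.76 to 11.28 in liver tumors and 9.23 to 10.16 in normal liver, with all 7 called higher. Pluripotency markers were at 8.60 to 9.50 in liver tumors and 6.71 to 6.75 in normal liver, with 6 of 8 called higher. Their part was not tested. Centring gave 17 members called higher and 3 lower, with 3645 genes higher and 8777 lower in place of 4296 and 6123.

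**Figure D4:**
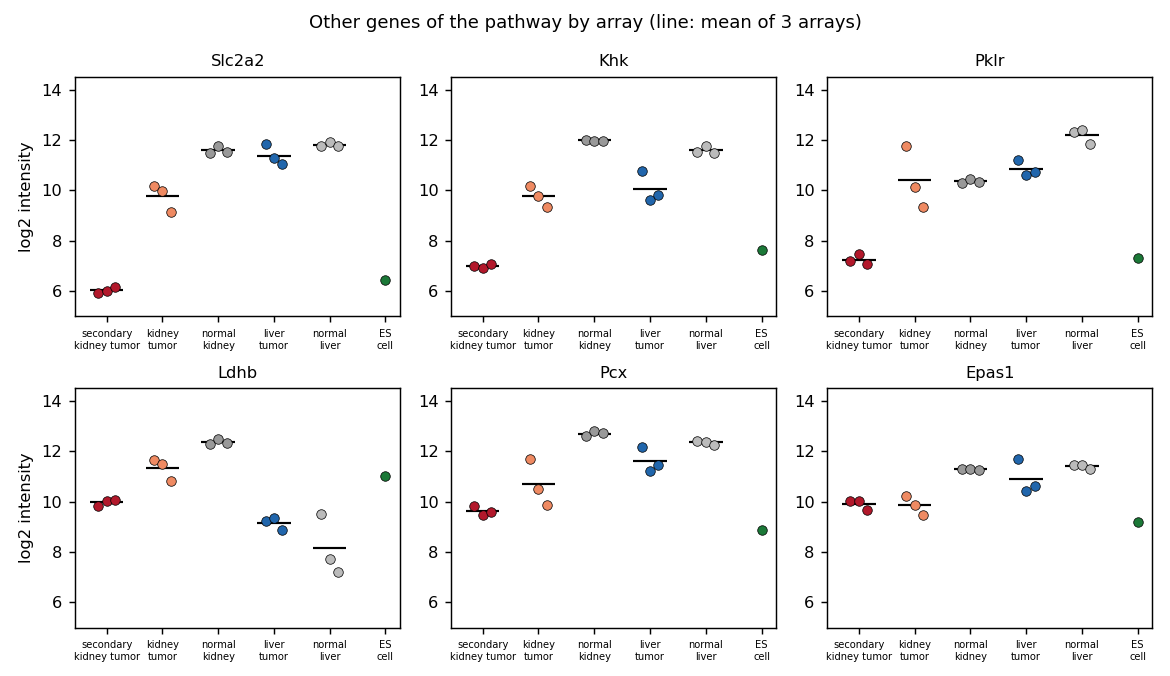
Log2 intensity by array (points, line: mean of 3 arrays) of 6 pathway genes outside the set. Slc2a2, Khk, Pklr and Pcx are lowest among tissues in secondary kidney tumors, where Slc2a2 lies at 5.91 to 6.16, and the liver tumors overlap with normal liver in Slc2a2, Ldhb and Epas1.

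The kidney tumor change minus the liver tumor change shows where the organs differed; these 2 comparisons share no array. The difference was called for 11 of 32 members, 3 with a higher change in kidney tumors and 8 with a lower one, against 7.54% and 9.26% of all genes (16.8% in either direction). Slc16a1 rose in kidney tumors and did not pass in liver tumors. Aldoa, Pfkp, P4ha1, Egln1 and Pfkfb4 rose in liver tumors and did not pass in kidney tumors. Car9 fell in kidney tumors and did not pass in liver tumors, where it was near the low end of the scale. Hk2, Slc16a3, Pfkl, Ddit4 and Kdm3a rose in both, with differences that were not called.

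For Slc16a1 the difference was 2.42 ± 0.24 (adjusted p 5.64e-05): normal liver already stood at 11.42 to 11.52, close to liver tumors at 11.42 to 12.36, while normal kidney was at 9.41 to 9.62. For Car9 it was -2.03 ± 0.33 (adjusted p 0.00122). For P4ha1 it was -1.75 ± 0.34 (adjusted p 0.00381), with kidney tumors at 10.38, 10.59 and 10.44 and normal kidney at 10.27, 10.08 and 10.18. For Aldoa it was -1.41 ± 0.27 (adjusted p 0.00321); kidney tumors were at 12.98, 12.72 and 12.80 and normal kidney at 12.88, 12.91 and 12.84, liver tumors at 12.55, 12.65 and 12.69 and normal liver at 11.87, 10.96 and 10.95. The tumors of the 2 organs thus ended near each other in Aldoa and P4ha1, and the normal tissues differed.

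For Pfkp the difference was -1.78 ± 0.50 (adjusted p 0.0265), with kidney tumors at 9.72, 8.75 and 8.61, normal kidney at 9.28, 8.88 and 9.05, liver tumors at 9.03, 9.05 and 9.48 and normal liver at 8.32, 7.01 and 7.01. The Pfkp call was lost without any 1 of 7 arrays (adjusted p 0.0524 to 0.0702), with changes of -1.56 to -1.79. For Slc2a3, which rose strongly in both organs, the kidney change was larger by 0.95 ± 0.27 (adjusted p 0.0306), again lost without any 1 of 7 arrays (adjusted p 0.0572 to 0.078), with changes of 0.81 to 0.95. Calls for Slc2a1 (-0.61, adjusted p 0.043), Vegfa (-0.77, adjusted p 0.0365) and Pdk1 (0.77, adjusted p 0.033) were also lost in fits without 1 array. For Egln1 the difference was -0.96 ± 0.21, with kidney tumors at 10.48, 10.02 and 10.12, normal kidney at 10.29, 10.28 and 10.15, liver tumors at 10.16, 10.67 and 10.64 and normal liver at 9.76, 9.43 and 9.53. The calls of Slc16a1, Car9, P4ha1, Aldoa, Egln1 and Pfkfb4 (-0.68 ± 0.16) were kept in every such fit. With the replicate number as a block, Slc2a1 was not called (adjusted p 0.061). Pkm was not called with all arrays (-0.85 ± 0.33, adjusted p 0.098) and was without normal liver array 1 (-1.24, adjusted p 0.000128). Pfkfb3 likewise was not (-1.25 ± 0.50, adjusted p 0.114) and was without normal liver array 1 (-1.72, adjusted p 0.00966) or kidney tumor array 1 (-1.58, adjusted p 0.03). Without kidney tumor array 1 the difference was also called for Adm (-2.08, adjusted p 0.0207), Bnip3 (-1.16, adjusted p 0.00183), Mxi1 (-0.56, adjusted p 0.00268) and Tpi1 (-0.43, adjusted p 0.00787). Hk1 was not called on its kept probe set (0.07 ± 0.09) but was on its own-chromosome probe set (-1.46 ± 0.39, adjusted p 0.0204).

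Of the 11 members higher in kidney tumors, 10 were also higher in liver tumors (90.9%), which is 50% of the 20 higher in liver tumors. Over all genes these shares were 68.1% and 68.5%. Of the 5 members lower in kidney tumors, none was lower in liver tumors, against 58.4% of all genes lower in kidney tumors. Among the other pathway lists, the largest differences were in Ppp1r3c (3.73 ± 0.34) and Pdk3 (-3.66 ± 0.26), Pdk3 having risen in liver tumors and fallen in kidney tumors (-1.06 ± 0.18). Plod2 (-2.63 ± 0.59), Ldhb (-2.05 ± 0.61), Mpc1 (-1.22 ± 0.31) and Arnt2 (-0.91 ± 0.24) had lower changes in kidney tumors.

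**Figure D5:**
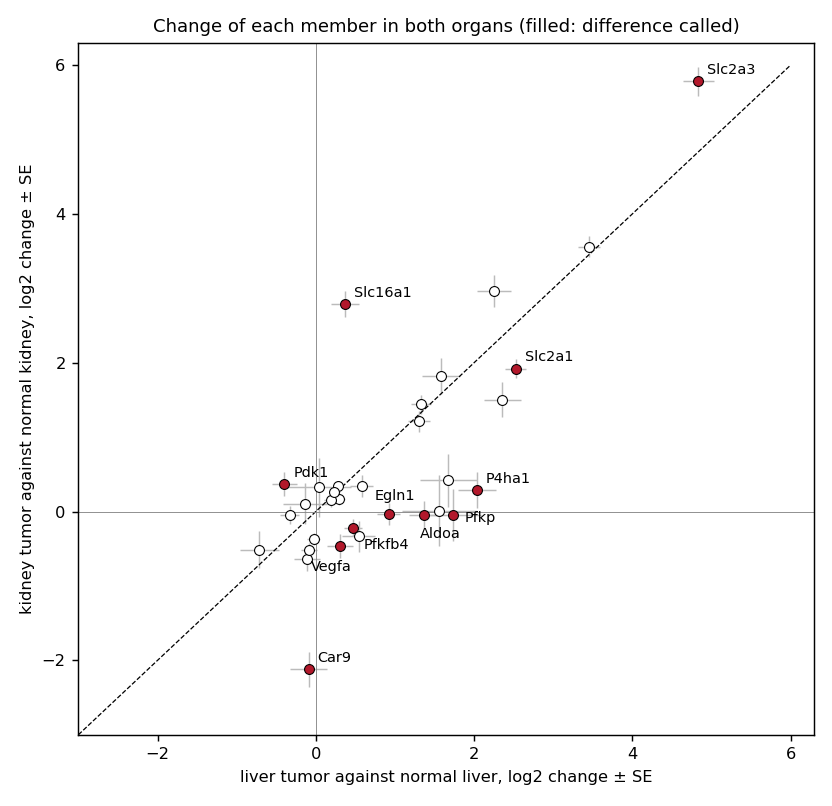
Log2 change ± SE of each measured member in liver tumors (x axis) and kidney tumors (y axis), each against its normal tissue; the dashed line marks equal changes and filled, named points were called for the difference. Slc16a1 and Slc2a3 lie above the line, and P4ha1, Pfkp, Aldoa, Egln1 and Car9 below it.

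ES cells, of which there was 1 array and hence no test, had high levels of most members. They stood above all 6 normal tissue arrays in 23 of 32 members (71.9%), against 30.8% of all genes, and above all 9 tumor arrays in 14 (43.8%), against 29.1%. Of the glycolysis genes alone, 14 of 18 were above all normal arrays and none below them. Of the other hypoxia targets, 9 of 14 were above and 3 below. Over all 19938 genes, 6296 were below all normal arrays. Slc2a3 read 12.99, Slc2a1 13.09, Hk2 10.64, Slc16a3 11.51 and Pkm 12.84 in ES cells, each above every normal kidney and normal liver array. Ndrg1 at 10.74 and Vegfa at 10.06 were under all of them, while Car9 at 8.01 lay between normal liver and normal kidney. Ldha was at 13.39, Pdk1 at 10.89 and Hk1 at 12.89.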

How the data were processed

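Array intensities, 1 value per probe set and array of 16 arrays in 6 groups, were deposited by the authors on a linear scale. Per the labels, RNA was biotinylated with an Affymetrix kit; background correction and scaling by the authors are not described in the sources used here. Values lay between 20.65 and 20261.9, and the number of arrays limits precision.

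The log2 intensity was used without further scaling. Of 28856 probe sets, 21789 carried 1 gene symbol in GEO's platform annotation, 1621 several and 5446 none; probe sets with 1 symbol gave 19938 genes, the highest mean deciding for 999 genes with more than 1. Groups, taken from the sample titles, entered a limma fit (version 3.58.1, R 4.3.3; 1 coefficient per group, 10 residual and 2.66 prior degrees of freedom, 2-sided, Benjamini-Hochberg, threshold 0.05) in 5 contrasts. The steps were tested on simulated data. The members, the other gene lists (75 entries, 68 measured) and the marker lists were chosen with earlier results of these data known. Per-array values are given for the 6 called members of largest change without overlap in each contrast, and throughout for Slc2a1, Slc2a3, Hk1, Hk2, Pkm, Ldha, Pdk1, Vegfa, Car9 and Ndrg1; of each other list the 3 called genes of largest change are named (not all are reported here), with Slc2a2, Pklr, Ldhb, Hif1a and Epas1 throughout; further genes were named after their values were seen. Replicate numbers were not used to pair arrays in the main fit. Same-number correlations of deviations ran between -0.278 and 0.15. Different-number arrays were not correlated for comparison, so this cannot show whether same-number arrays were matched. Alternatives were another scaling, filter, probe set choice, moderation, array weights, the compared groups alone, a replicate block and left-out arrays.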

Additional observations from a re-analysis of the deposited data

Results flagged for a closer look

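For 11 members the tumor change differed between the organs by a limma test of the difference itself (kidney tumor change minus liver tumor change, adjusted p under 0.05 over all genes). The change was higher in kidney tumors for Slc16a1 (2.42), Slc2a3 (0.95) and Pdk1 (0.77). It was lower in kidney tumors for Car9 (-2.03), Pfkp (-1.78), P4ha1 (-1.75), Aldoa (-1.41), Egln1 (-0.96), Vegfa (-0.77), Pfkfb4 (-0.68) and Slc2a1 (-0.61). No group had the 4 arrays needed to test a single array for standing apart.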

How the results depend on the processing

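Of 3264 values of single members under an alternative, 2951 kept direction and side of the threshold, 130 lost a call, 77 gained one, 98 changed sign while called in neither fit, and 8 called values turned direction, all 8 of Hk1. Hk1 turned to -0.14 in kidney tumors with probe sets averaged and to -0.63 on the probe set of largest variance or of its own chromosome, to -0.36 in secondary tumors on either of these, and in the difference between organs to -0.70 and -1.46. Leaving out 1 array, members called higher and lower numbered 11 to 13 and 4 to 7 in kidney tumors, 11 and 8 to 9 in secondary against normal, 2 to 3 and 13 to 16 in secondary against primary, 18 to 21 and 0 to 2 in liver tumors, and 1 to 3 and 5 to 13 in the difference. Over all 19938 genes such calls numbered 3760 to 4512 and 4613 to 5528 in kidney tumors. In secondary against normal they were 5514 to 5679 and 6737 to 7338, and against primary 3197 to 3477 and 2536 to 3256. In liver tumors they were 3685 to 4678 and 4876 to 6182, and in the difference 1127 to 2113 and 1394 to 2460. Without kidney tumor arrays 2 and 3, lower calls in kidney tumors, higher calls in secondary against primary and lower differences were all fewer. Higher differences were 1 with the compared groups alone and 1 without the arrays high in fat or muscle markers. Lower differences were 14 with array weights, where 2640 of all genes had a lower difference in place of 1847. The estimation of these weights gave a convergence warning. Lower differences were fewer than in the main fit without liver tumor arrays 2 and 3 or without arrays 2 and 3 of both primary tumors. Lower calls in liver tumors were 1 with quantile normalization, averaged probe sets, own-chromosome probe sets, without liver tumor arrays 2 and 3, or without the fat or muscle arrays. Arrays 2 and 3 of both primary tumors are those with high Xist. Fits without them leave a tumor group 1 array, assumed to vary like the other groups. The cause was not tested. Leaving out liver tumor arrays 2 and 3, arrays 2 and 3 of both primary tumors or the fat or muscle arrays, and the own-chromosome probe sets, were chosen after seeing the data. Centring arrays moved the median of all genes to -0.22, -0.33, -0.16 and -0.24 (kidney, secondary against normal, secondary against primary, liver). With the replicate number as a block the counts were 11 and 5, 11 and 9, 2 and 14, 20 and 2, and 3 and 8 in the order above, and of single members' calls only Slc2a1 (lost, adjusted p 0.061) and Bnip3 (gained, adjusted p 0.0447) changed, both in the difference.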
